A study of Rattus norvegicus with 32 samples.

Results

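The nuclear-encoded subunits of the respiratory chain were examined complex by complex in left ventricles of septic rats. Genes were taken by name, as every gene with a probe called Ndufa, Ndufb, Ndufc, Ndufs or Ndufv and its number, Sdha to Sdhd, Uqcr, Cox4 to Cox8 or Atp5 in either of the annotation versions of the arrays. This gave 93 genes of the 34910 names on the array, represented by 132 of its 45598 probes, and 91 of the genes were measured above background. Of these, 35 encoded subunits of complex I, 4 of complex II, 8 of complex III, 17 of complex IV and 15 of complex V, and 12 had a matching name without being a subunit, such as assembly factors. The 2 genes that were not measured, Cox7b2 and Cox8c, are testis isoforms and were not well above background on any of the 32 arrays.

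Male and female Wistar rats aged 9 to 12 weeks underwent sham surgery or caecal ligation and puncture (CLP), a surgical model of abdominal sepsis. The CLP plus landiolol group received landiolol, a drug of short action that blocks β1-adrenergic receptors, by infusion from 1 h after CLP, and the other groups received saline in its place. Each sex had 5 sham, 5 CLP and 6 CLP plus landiolol rats, and the left ventricle of each was hybridised to a 1-colour array of its own. All rats were given buprenorphine before surgery, and all hearts were imaged in vivo and perfused as isolated hearts before they were frozen at 20 h. The question was how sepsis and the β1 blocker moved the messenger RNAs of the respiratory chain in each sex.

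Complex I takes electrons from NADH and complex II takes them from succinate, both pass them through ubiquinone to complex III, and complex IV hands them to oxygen. Complexes I, III and IV pump protons across the inner mitochondrial membrane, and complex V, the ATP synthase, makes ATP as the protons flow back. Heart muscle obtains most of its ATP in this way, and for some subunits of complex IV it uses a muscle isoform in place of the general one. The subunits that the mitochondrial genome encodes do not have names of the kind used here and were not examined.

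The promoters of 5 of these genes are given because these genes stand for patterns in the data, each taken by its brightest probe. Ndufb7 and Ndufb10 were the complex I subunits that passed the test after CLP in males, and Ndufs5 lay without overlap below sham in females. Ndufaf4 was the 1 gene that passed after CLP in females, and Ndufa4l2 had the largest decrease in males. A dimmer probe of Cox7a1, described below, fell further in males and also passed in females, and its promoter is not shown. Each sequence holds the 250 bases before the start of the gene, 5′ to 3′ on the strand of the gene, from RefSeq (build GRCr8), and capitals mark a match to one of the motifs named after them.
Ndufb7, chr19:41477292-41477541, minus strand: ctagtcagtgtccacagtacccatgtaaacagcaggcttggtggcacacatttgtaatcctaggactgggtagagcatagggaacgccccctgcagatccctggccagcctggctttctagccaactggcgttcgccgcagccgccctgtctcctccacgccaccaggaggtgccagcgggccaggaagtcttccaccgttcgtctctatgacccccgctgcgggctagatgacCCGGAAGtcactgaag
Ndufs5, chr5:141264403-141264652, minus strand: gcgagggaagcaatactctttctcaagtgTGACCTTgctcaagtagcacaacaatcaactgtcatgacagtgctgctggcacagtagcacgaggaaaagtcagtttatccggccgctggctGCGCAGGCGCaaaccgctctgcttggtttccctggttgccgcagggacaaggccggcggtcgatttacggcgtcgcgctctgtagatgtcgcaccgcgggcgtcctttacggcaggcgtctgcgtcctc
Ndufaf4, chr5:43401545-43401794, plus strand: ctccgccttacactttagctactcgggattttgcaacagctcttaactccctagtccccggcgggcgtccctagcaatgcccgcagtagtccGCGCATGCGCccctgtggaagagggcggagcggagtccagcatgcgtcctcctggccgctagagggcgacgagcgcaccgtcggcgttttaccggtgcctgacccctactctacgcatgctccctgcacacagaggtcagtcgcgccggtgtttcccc
Ndufb10, chr10:14255967-14256216, minus strand: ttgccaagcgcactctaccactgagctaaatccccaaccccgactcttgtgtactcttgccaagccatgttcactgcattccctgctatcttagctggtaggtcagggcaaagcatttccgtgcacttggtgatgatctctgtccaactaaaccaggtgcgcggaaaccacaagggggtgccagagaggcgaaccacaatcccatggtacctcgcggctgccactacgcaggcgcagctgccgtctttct
Ndufa4l2, chr7:65241919-65242168, plus strand: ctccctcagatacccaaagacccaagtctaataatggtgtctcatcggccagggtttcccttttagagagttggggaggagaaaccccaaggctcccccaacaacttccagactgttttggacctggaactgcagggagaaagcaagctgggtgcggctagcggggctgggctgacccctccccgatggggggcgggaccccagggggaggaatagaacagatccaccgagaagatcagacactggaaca
Motifs were searched on both strands as plain letters in the promoters of 78 of the 93 genes. The others had no promoter sequence at hand or lay on chromosome 18. Leaving out chromosome 18 was not applied to the set of all promoters. The NRF1 motif (GCGCA, any base, GCGC), read by a regulator of mitochondrial genes, was found in 13 of the 78 (16.7%), against 4.17% of all 27457 promoters. The ETS motif CCGGAAG was found in 17 (21.8%, against 7.74%), the motif of oestrogen-related receptors AAGGTCA in 6 (7.69%, against 3.77%), the hypoxia core ACGTG in 20 (25.6%, against 16.9%) and the YY1 motif AAGATGGC in 2 (2.56%, against 1.69%). Ndufb7 held an ETS match 16 bases before the start, Ndufs5 an NRF1 match at 129 and a receptor match on the other strand at 221, and Ndufaf4 an NRF1 match at 158, whereas Ndufb10 and Ndufa4l2 held none. A match is a description of letters and not evidence of binding, and genes with and without a match were among those that fell.

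Arrays of a sex correlated at 0.936 to 0.989 in males and at 0.930 to 0.986 in females (Pearson, over all probes kept). They differed in brightness, and the median log2 signal ran from 4.27 to 5.94 in males and from 4.73 to 5.80 in females. Of the 32, 9 arrays had a median below 5: male sham 1 and 5, CLP 1 and CLP plus landiolol 1, 3 and 5, and female sham 3, CLP 5 and CLP plus landiolol 3. No spot was saturated. The 10 cardiomyocyte markers were well above background on every array, and 0 of them passed the test for CLP vs sham in either sex (medians of -0.06 and -0.01 on the log2 scale). Macrophage markers were higher after CLP, with 4 of 9 measured passing in males and 3 of 9 in females, and Adgre1 rose by 2.79 in both sexes. The summed level of the macrophage list was 14.9 to 15.4 in male sham hearts, 15.8 to 16.2 after CLP and 15.4 to 16.2 with landiolol, and in females it was 15.1 to 15.4, 15.6 to 16.2 and 15.8 to 16.2. Of the 10 neutrophil markers 3 were measured, and 2 of them rose in males and 1 in females, while Elane, Mmp8 and Ngp were not well above background on any array. S100a8 was well above background on 0 of 5 male and 1 of 5 female sham arrays, and S100a9 on 3 and 2. These 2 markers were kept only through the septic groups, so the filter itself favours a rise in them. The summed neutrophil level was 6.64 to 7.16, 7.54 to 9.76 and 8.56 to 9.90 in the male sham, CLP and CLP plus landiolol groups and 6.79 to 7.79, 7.80 to 8.95 and 7.84 to 10.2 in the female ones. Of the 7 fibroblast markers, 4 fell and 1 rose in males and 0 passed in females. Of the 7 endothelial markers 1 fell in each sex. Of the erythroid markers, 2 were measured in males and 3 in females, and 1 fell in each sex. Of 3 skeletal muscle markers 1 fell and 1 rose in males and 1 rose in females. The summed erythroid level ranged from 10.8 to 16.8 with a median of 11.9 in the female CLP group. In female sham hearts it ranged from 11.7 to 11.9 with a median of 11.8. Of 9 lymphocyte markers, 4 were measured in males and 3 in females, and 0 passed. Of the 4 atrial markers 0 passed. For CLP vs sham 7.81% of all probes passed in males and 3.63% in females, and 3.94% and 1.82% passed as decreases. The part of these cells in the results below was not tested, and in a piece of tissue fewer cells of a type and less RNA per cell cannot be told apart. All levels below are normalised log2 signals, and differences are on the log2 scale. Each gene is given by its brightest probe, and the number of arrays limits the precision. Nothing in the sample labels ties a sample to another, so samples were treated as independent. A p-value within a sex sets a difference against the spread within groups, pooled over all groups of that sex and moderated across probes.

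After CLP, small decreases extended over all 5 complexes in both sexes. In males, 85 of the 91 genes lay below sham, with a median of -0.22 (-13.9%), while 49.1% of all probes did so and their median was 0.01. In females, 85 of the 91 genes also lay below sham, with a median of -0.24, against 51.8% of all probes and a median of -0.01. Few of these differences passed the test one by one. At an FDR of 1%, with limma and Benjamini-Hochberg adjustment over all probes kept, 4 genes fell in males and 0 rose, where 7.81% of all probes were called and 3.94% were called lower. In females 1 gene fell, where 3.63% of all probes were called and 1.82% were called lower. At an FDR of 5% the counts were 13 in males, where 16% of all probes were called and 8.12% were called lower, and 9 in females, where 9.17% were called and 4.97% were called lower. All of these genes were lower. At an FDR of 5% their shares were near the background in either direction and above it for decreases alone, while at 1% the female share lay below the background and the male share was near that for decreases. Every CLP array lay below every sham array for 18 genes in males (6.20% of all probes) and for 16 in females (4.37%).

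The male genes without overlap were Ndufv1, Ndufa6, Ndufa8, Ndufb4, Ndufb7, Ndufb8, Ndufb9 and Ndufb10 of complex I, Uqcr11 and Uqcrq of complex III, Cox6b1, Ndufa4, Cox4i2 and Ndufa4l2 of complex IV, Atp5h of complex V, and Ndufaf5, Cox7a2l and Atp5s among the genes that are not subunits. The female ones were Ndufb2, Ndufb7, Ndufb10, Ndufc1 and Ndufs5 of complex I, Cox7c, Cox7a1 and Ndufa4l2 of complex IV, Atp5d, Atp5h, Atp5g1 and Atp5g2 of complex V, and Ndufaf2, Ndufaf4, Ndufaf5 and Atp5s among the others. None belonged to complex II in either sex. The male step of Uqcrq was small, from 17.64 to 17.74 in sham hearts to 17.56 to 17.63 after CLP. A dimmer probe of Uqcrq did not share it, with 8.73 to 9.64 in male sham hearts and 9.28 to 10.54 after CLP.

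**Figure D1:**
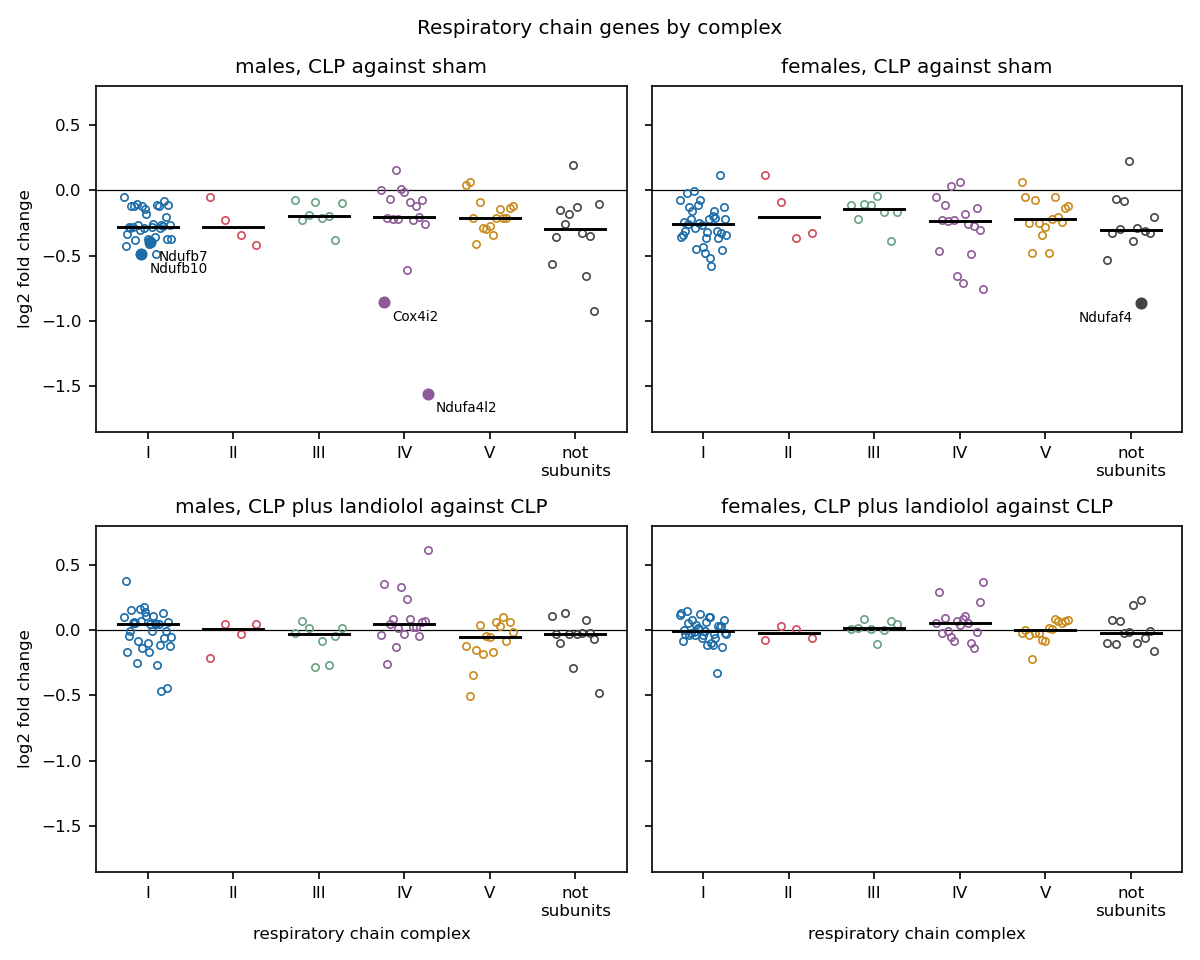
Log2 fold change of each gene by complex in males (left) and females (right), with CLP against sham above and CLP plus landiolol against CLP below. Each point is 1 gene, filled points passed the test and black bars are medians. After CLP most points of every complex lie below 0, whereas landiolol leaves them around 0 with no filled point.

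In complex I, the entry point for NADH, all 35 subunits lay below sham in males (median -0.28) and 34 of 35 did so in females (median -0.26). The 7 core subunits, which together carry the flavin, the iron-sulphur clusters and part of the quinone site, lay below sham in both sexes (medians of -0.21 in males and of -0.21 in females), and 0 of them passed the test. Of the core subunits, Ndufs8 had the largest difference, at -0.37 (SE 0.41) and -0.46 (SE 0.34), and Ndufv1, which binds NADH, lay at -0.11 (SE 0.08) and -0.13 (SE 0.11). All 28 accessory subunits lay below sham in males (median -0.28). The 2 subunits that passed in males were Ndufb10 and Ndufb7, accessory subunits of the membrane arm. Ndufb10 (probe at chr10:13977309-13977368, minus strand, build rn4, which the array files use and for which they do not give exons) measured 15.96, 15.96, 16.003, 16.06 and 15.97 in the male sham group. It measured 15.48, 15.55, 15.76, 15.35 and 15.38 after CLP, and from 15.49 to 15.71 with a median of 15.55 in the CLP plus landiolol group. The 5 sham arrays lay within a narrow band above every array of the septic groups. The difference of CLP from sham was -0.49 (SE 0.09, adjusted p = 0.00228 in limma), which is -28.7%. In females Ndufb10 measured 15.999, 15.84, 15.98, 16.04 and 15.98 in the sham group and 15.47, 15.60, 15.40, 15.71 and 15.41 after CLP. The groups again did not overlap, and the difference was -0.45 (SE 0.11, adjusted p = 0.0149), short of the threshold.

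Ndufb7 (chr19:26259732-26259791, minus strand, rn4) measured 16.25, 16.14, 16.23, 16.31 and 16.17 in male sham hearts and 15.88, 15.89, 15.88, 15.80 and 15.68 after CLP. All male CLP arrays lay below all sham arrays, and the difference was -0.39 (SE 0.08, adjusted p = 0.00467 in limma). In females it measured 15.89, 15.83, 15.87, 15.83 and 15.93 in the sham group and 15.51, 15.32, 15.58, 15.54 and 15.57 after CLP, again without overlap. The female difference was -0.37 (SE 0.10, adjusted p = 0.026) and did not pass. The male call of Ndufb7 was lost when sham 3, sham 4, CLP 4 or CLP 5 was left out (adjusted p up to 0.0149), whereas that of Ndufb10 held without any single array. Both lost the male call without the dim arrays (adjusted p of 0.017 for each), although the differences were then -0.51 and -0.41. Both also lost it when only the sham and CLP arrays were fitted (adjusted p of 0.0143 and 0.0222).

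Other subunits of the membrane arm had like differences without passing the test. Ndufc1 measured 14.20, 13.90, 14.22, 14.34 and 14.22 in female sham hearts and 13.73, 13.58, 13.53, 13.65 and 13.81 after CLP. The groups did not overlap, and the difference was -0.51 (SE 0.11, adjusted p = 0.0101) in females and -0.36 (adjusted p = 0.0426) in males. Ndufs5, which is also part of the membrane arm, measured 15.99, 16.05, 15.74, 16.09 and 15.93 in the female sham group and 15.66, 15.56, 15.59, 15.55 and 15.61 after CLP. These groups also lay apart, with a difference of -0.36 (adjusted p = 0.0411), and in males it was -0.27 (adjusted p = 0.0471). Assembly factors aside, the largest difference in complex I was that of Ndufc2 in both sexes, at -0.49 (SE 0.17) and -0.58 (SE 0.19), with a wide spread. Ndufa8 and Ndufb1 had male differences of -0.38 (adjusted p = 0.0212) and -0.30 (adjusted p = 0.0398), and female differences of -0.22 and -0.29. The subunit nearest to 0 or above it was Ndufa1 in males, at -0.05 (SE 0.09), and Ndufs6 in females, at 0.12 (SE 0.13).

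**Figure D2:**
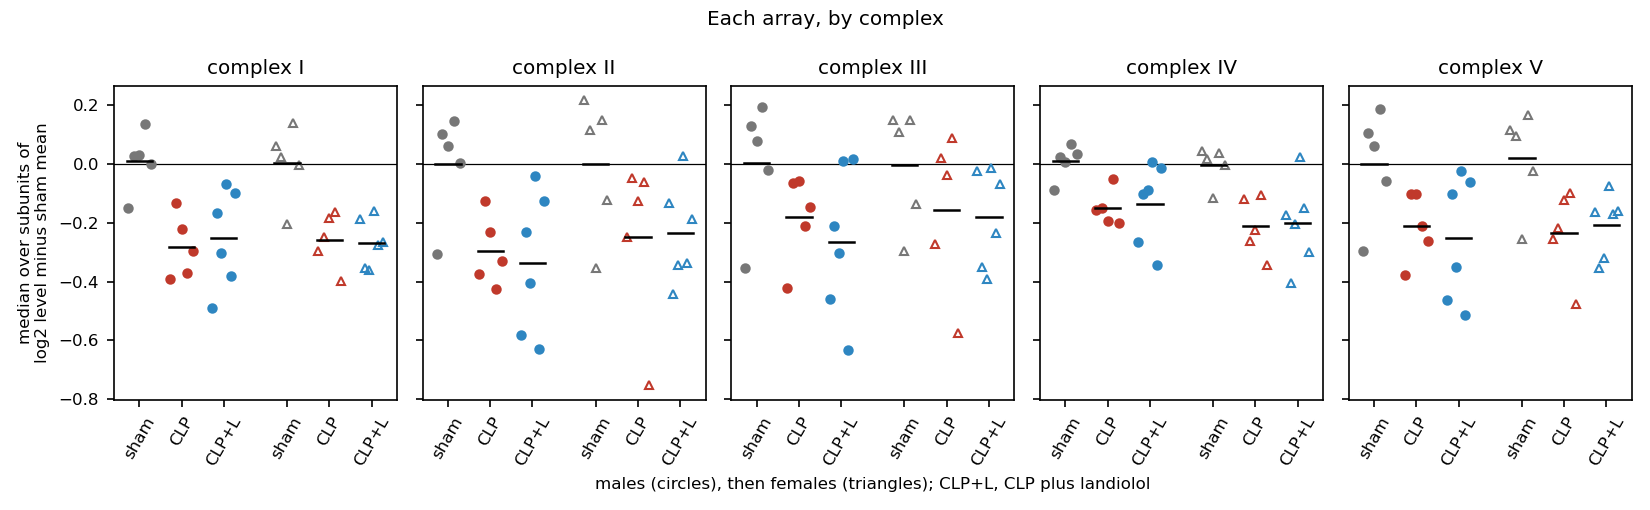
Median over the subunits of each complex of the log2 level minus the sham mean, for each array in 6 groups, with the group mean as a bar. In complex I every female array of both septic groups lies between -0.40 and -0.16, and the septic groups of a sex overlap each other in all 5 complexes.

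Taken array by array, the median complex I subunit lay from -0.15 to 0.14 around the sham mean in male sham hearts and from -0.39 to -0.13 after CLP. In females the corresponding ranges were -0.20 to 0.14 and -0.40 to -0.16. The ranges of the sham and CLP groups overlapped slightly in both sexes. For complex IV the male ranges were -0.09 to 0.07 and -0.20 to -0.05, and the female ranges were -0.12 to 0.04 and -0.35 to -0.11. For complex II the male CLP arrays lay from -0.42 to -0.12 and the female ones from -0.75 to -0.05, for complex III from -0.42 to -0.06 and from -0.57 to 0.09, and for complex V from -0.38 to -0.10 and from -0.48 to -0.10. In each of these 3 complexes the sham arrays reached down to between -0.35 and -0.25 and so overlapped the CLP arrays. These values describe the genes chosen and were given no test. Some of the median differences from sham after CLP rested on single arrays or on the setting. Without sham 4 the male medians of complexes III, IV and V were -0.09, -0.13 and -0.13, and without CLP 1 that of complex III was -0.11. With array brightness as a term the male medians of complexes III, IV and V were -0.10, -0.12 and -0.14, and without a filter on dim probes that of complex IV was -0.12. In females the median of complex II was -0.12 without CLP 5, that of complex III was -0.08 without CLP 5 or without sham 1 and -0.23 with 75th percentile scaling, and that of complex V was -0.14 without sham 1. The median of complex I after CLP moved by less than 1.5 times under every setting tried.

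In complex II, the succinate dehydrogenase, the membrane anchors had the largest differences. All 4 subunits lay below sham in males (median -0.28) and 3 of 4 in females (median -0.21), and 0 passed the test. The membrane anchor Sdhd measured 15.40, 15.88, 15.78, 15.95 and 15.71 in male sham hearts and 15.34, 15.47, 15.41, 15.17 and 15.25 after CLP. The CLP arrays lay below 4 of the 5 sham arrays, and the difference was -0.42 (SE 0.13, adjusted p = 0.0352). In females the difference of Sdhd was -0.33 (SE 0.15, adjusted p = 0.198). The other anchor, Sdhc, had differences of -0.34 (SE 0.13) in males and -0.37 (SE 0.15) in females, with adjusted p of 0.0926 and 0.15 in limma. The iron-sulphur subunit Sdhb lay at -0.22 (SE 0.09) and -0.09 (SE 0.12). The flavoprotein Sdha, which oxidises succinate, ranged from 14.34 to 15.83 within the male sham group and from 14.60 to 15.41 after CLP, and its differences of -0.05 (SE 0.33) and 0.12 (SE 0.30) were far smaller than this spread.

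In complex III, which passes electrons from ubiquinol to cytochrome c, all 8 subunits lay below sham in both sexes, with medians of -0.19 in males and -0.14 in females, and 0 passed the test. The hinge protein Uqcrh had the largest difference. It measured 16.14, 16.79, 16.72, 16.75 and 16.62 in male sham hearts and 15.99, 16.22, 16.36, 16.29 and 16.27 after CLP. Only sham 1, a dim array, lay within the range of the CLP group, and the difference was -0.38 (SE 0.15, adjusted p = 0.115 in limma). The female difference was -0.39 (SE 0.14, adjusted p = 0.101). Uqcr11, a small subunit, measured 16.61, 16.56, 16.56, 16.52 and 16.52 in male sham hearts and 16.40, 16.35, 16.32, 16.37 and 16.21 after CLP, and its narrow groups did not overlap. The smallest differences were those of Uqcr10 in males (-0.08, SE 0.09) and of Uqcrc2 in females (-0.04, SE 0.26). The Rieske iron-sulphur protein Uqcrfs1 depended on the probe: the brightest one lay at -0.20 (SE 0.31) in males, while a dimmer one fell by 0.58 (SE 0.10, adjusted p = 0.00104).

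Complex IV, cytochrome c oxidase, held the decreases of Ndufa4l2 and Cox4i2 in males and also differences close to 0. In males 14 of 17 subunits lay below sham and 2 passed, and in females 15 of 17 did so and 0 passed, with medians of -0.20 and -0.23. Both genes that passed in males are minor isoforms with a common partner in the same complex: Ndufa4l2, a hypoxia-induced relative of Ndufa4, and Cox4i2, the isoform of subunit 4 that is regulated by oxygen. Ndufa4l2 (chr7:67493727-67493786, plus strand, rn4) measured 7.45, 7.79, 7.72, 7.64 and 7.95 in male sham hearts and 5.84, 6.82, 5.78, 6.48 and 5.84 after CLP. All CLP arrays lay well below all sham arrays, and the difference was -1.56 (SE 0.25, adjusted p = 0.000661), which is -66%. In females it measured 7.06, 7.48, 7.25, 7.48 and 7.06 in the sham group and 7.04, 6.82, 6.72, 6.51 and 5.46 after CLP. The female groups just failed to overlap, and the difference of -0.75 (SE 0.32, adjusted p = 0.156) did not pass. Another probe of Ndufa4l2 gave -1.39 in males (adjusted p = 0.00188) and -1.003 in females (adjusted p = 0.0852, well above background on 4 of the 5 female CLP arrays).

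Cox4i2 (chr3:143114177-143114236, plus strand, rn4) measured 11.92, 11.57, 11.89, 11.54 and 11.73 in male sham hearts and 11.17, 11.03, 10.72, 10.84 and 10.61 after CLP. The groups did not overlap, and the difference was -0.86 (SE 0.14, adjusted p = 0.00088), which is -44.7%. In females it measured 10.95, 10.999, 11.45, 11.20 and 11.33 in the sham group and 11.10, 11.37, 10.30, 10.36 and 10.45 after CLP. CLP 1 and CLP 2 lay among the female sham arrays and the other three lay below them, and the difference was -0.47 (SE 0.22, adjusted p = 0.218). The male calls of Ndufa4l2 and Cox4i2 held without any single array and under every other setting tried. Their common partners had small differences. Cox4i1 differed by 0.01 (SE 0.08) in males, which became -0.10 when arrays were scaled to the 75th percentile, and by -0.05 (SE 0.09) in females. Ndufa4 lay at -0.26 (SE 0.09, adjusted p = 0.0535) in males and at -0.31 (SE 0.11, adjusted p = 0.11) in females.

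Ndufa4l2 and Cox4i2 are known to be abundant in pericytes, the mural cells of capillaries. A list of 8 pericyte markers, added after the data were seen, was well above background on every array. In males 7 of the 8 lay below sham after CLP, with 0 passing and a median of -0.50. In females 6 of 8 did so, with 1 passing (Rgs5, which fell by 0.91) and a median of -0.32. Of all probes, 3.94% were called lower in males and 1.82% in females. The summed level of the list was 14.4 to 14.8 in male sham hearts, 14.1 to 14.5 after CLP and 14.3 to 14.7 with landiolol, and in females it was 14.3 to 14.4, 13.9 to 14.4 and 14.1 to 14.6. The part of pericytes in the decrease of the 2 genes was not tested.

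**Figure D3:**
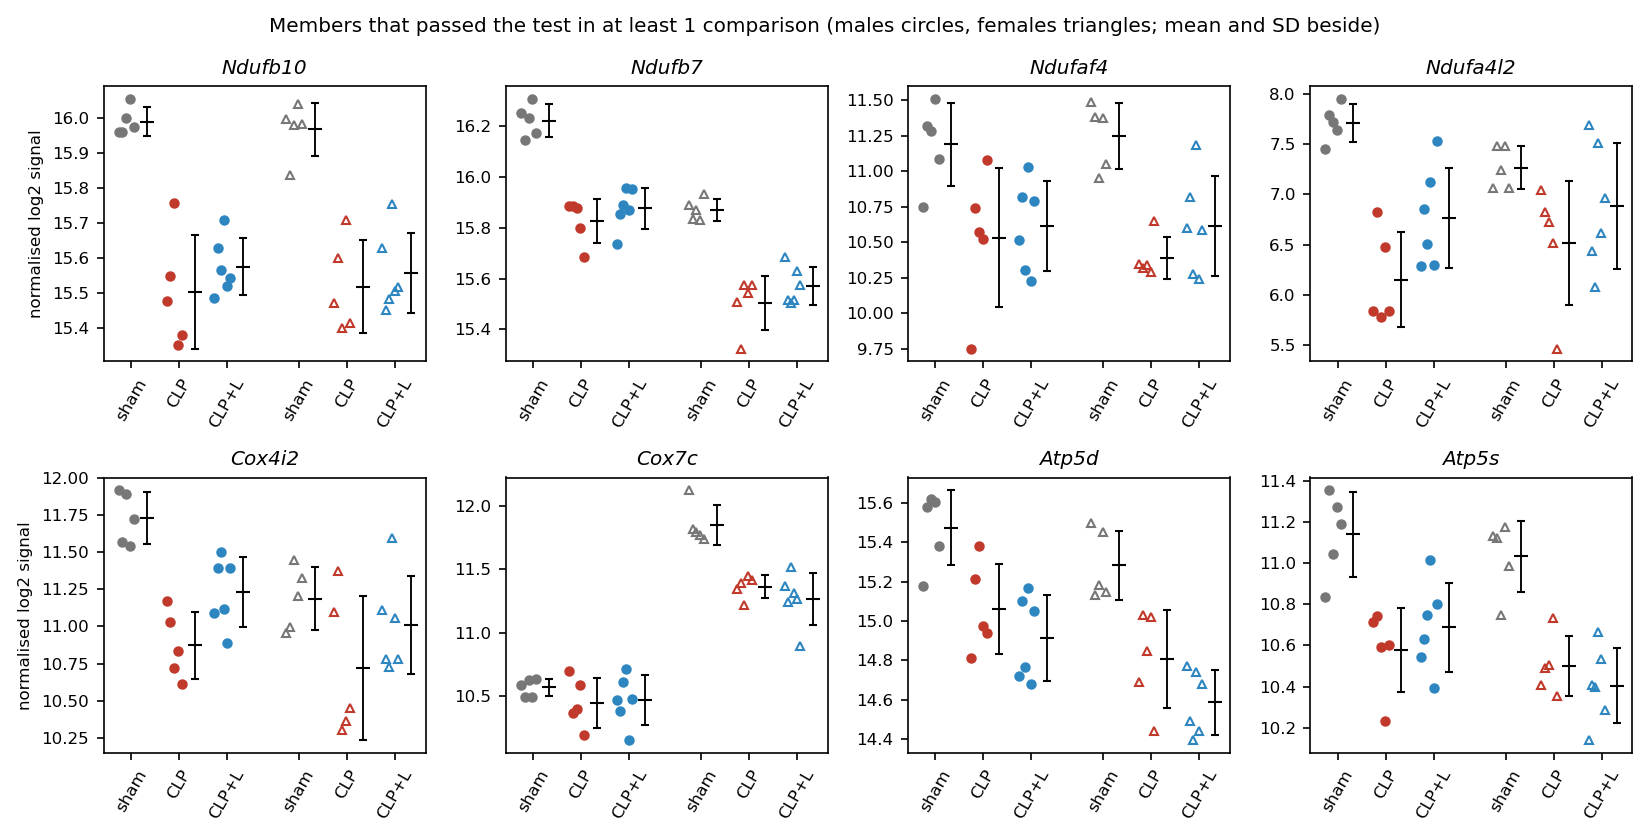
Normalised log2 level on each array, with mean ± SD per group, of the 8 genes that passed the test in at least 1 comparison. Ndufb10, Ndufb7, Ndufa4l2 and Cox4i2 lie below sham on every male CLP array, and the CLP plus landiolol arrays of Ndufa4l2 and Cox4i2 lie between the other groups on average.

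The other isoform pairs of complex IV are given next. Cox7a1, the heart and skeletal muscle isoform of subunit 7a, measured 15.41, 15.40, 15.32, 14.82 and 15.57 in male sham hearts and 14.81, 14.86, 14.91, 14.30 and 14.58 after CLP. In females it measured 14.67, 15.04, 14.85, 14.73 and 14.86, and then 14.36, 14.16, 14.20, 14.10 and 13.78. The female groups did not overlap and the male groups overlapped through sham 4. The differences were -0.61 (SE 0.18, adjusted p = 0.0321) in males and -0.71 (SE 0.19, adjusted p = 0.0293) in females, so that neither passed on this probe. Only the female annotation assigns this probe to Cox7a1, and the same holds for a dimmer one, which went from 8.99 to 9.90 in male sham hearts to 6.06 to 7.29 after CLP, and fell by 2.83 (adjusted p = 1.2e-05 in limma). In females the same probe fell by 2.74 (adjusted p = 0.000152). The general isoform Cox7a2 lay at -0.09 (SE 0.09) and -0.18 (SE 0.12), and the related supercomplex factor Cox7a2l at -0.26 (SE 0.08, adjusted p = 0.0383) and -0.30 (SE 0.12, adjusted p = 0.154).

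The muscle isoform Cox6a2 lay at 0.16 (SE 0.09) in males and 0.03 (SE 0.10) in females, values that turned to -0.01 and -0.09 with 75th percentile scaling, and its general counterpart Cox6a1 at -0.22 (SE 0.16) and -0.23 (SE 0.17). Cox8b, the muscle isoform of subunit 8, lay at -0.07 (SE 0.08) and -0.13 (SE 0.15), and the general Cox8a at -0.20 (SE 0.15) and -0.27 (SE 0.13). Cox6b1 lay at -0.22 and -0.23, and the testis isoform Cox6b2, with a wide spread, at 0.01 (SE 0.31) and -0.66 (SE 0.40). None of these differences passed the test, and the differences between isoforms of a pair were not tested. Cox7c, a small nuclear-encoded subunit, measured 12.12, 11.82, 11.79, 11.77 and 11.74 in female sham hearts and 11.34, 11.40, 11.22, 11.45 and 11.42 after CLP. These groups lay apart, but the difference of -0.48 (SE 0.13, adjusted p = 0.0243) did not pass, and in males it was -0.12 (SE 0.12). Cox6c, the highest value in females at 0.07 (SE 0.11), was -0.12 with 75th percentile scaling and -0.09 in the table of the authors.

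**Figure D4:**
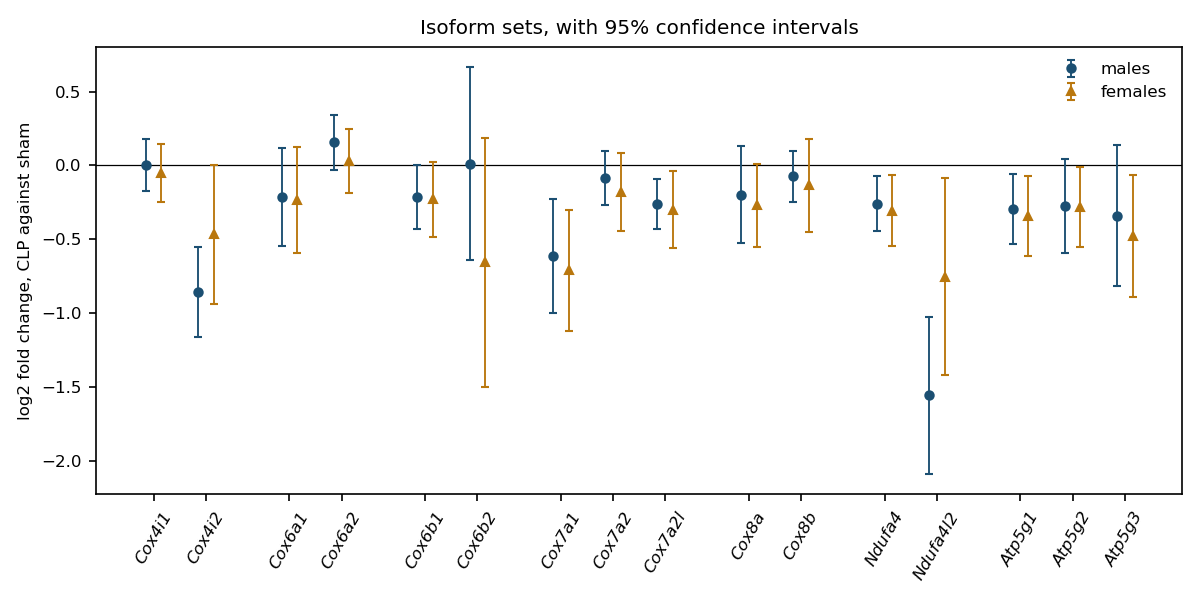
Log2 differences of CLP from sham with 95% confidence intervals for the members of each isoform set, in males and females. Cox4i2, Ndufa4l2 and Cox7a1 are among the genes that lie below 0 with intervals that do not reach it in males. Cox4i1 and Cox6a2 in males and Cox6a2 in females lie above 0 here and below 0 with 75th percentile scaling.

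In complex V, the ATP synthase, 13 of 15 subunits lay below sham in males and 14 of 15 in females, with medians of -0.21 and -0.22, and 0 passed. The 10 subunits outside the catalytic F1 part, among them the subunits of the membrane rotor and of the stalk, all lay below sham in both sexes, compared with 3 of the 5 F1 subunits in males and 4 of 5 in females. The difference between these groups of subunits was not tested. The F1 subunit Atp5d (chr7:11073061-11073120, minus strand, rn4) was an exception among the 5. It measured 15.50, 15.13, 15.19, 15.45 and 15.15 in female sham hearts and 14.69, 15.03, 14.85, 15.02 and 14.44 after CLP. The groups did not overlap, with a difference of -0.48 (SE 0.14, adjusted p = 0.046), and in males it was -0.41 (SE 0.14, adjusted p = 0.0607). The F1 beta subunit Atp5b, which carries the catalytic sites, ranged from 13.02 to 15.60 within the male sham group, and its differences were 0.06 (SE 0.51) and -0.05 (SE 0.45). Atp5a1, the alpha subunit, had the highest female value at 0.06 (SE 0.14). Atp5h, a subunit of the stalk, measured 16.22, 16.19, 16.09, 16.11 and 16.19 in female sham hearts and 16.04, 15.86, 15.95, 15.89 and 15.97 after CLP. These groups lay apart by a small step, and the differences were -0.22 (SE 0.10, adjusted p = 0.182) in females and -0.21 (SE 0.09, adjusted p = 0.122) in males. The 3 genes that encode the same proton-carrying subunit c lay at -0.30, -0.27 and -0.34 in males (Atp5g1, Atp5g2 and Atp5g3) and at -0.34, -0.28 and -0.48 in females, with 0 passing.

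Of the 12 genes that are not subunits, 11 lay below sham in each sex, and Ndufaf4 passed in females. Ndufaf4 (chr5:39944700-39944759, plus strand, rn4), an assembly factor of complex I, measured 11.49, 11.38, 10.95, 11.38 and 11.05 in female sham hearts and 10.35, 10.32, 10.34, 10.29 and 10.65 after CLP. The groups lay apart, and the difference was -0.86 (SE 0.17, adjusted p = 0.00564 in limma), which is -44.9%. In males it measured 10.75, 11.32, 11.28, 11.51 and 11.09, and then 9.75, 10.74, 10.57, 10.52 and 11.08. The male groups overlapped, with a difference of -0.66 (SE 0.23, adjusted p = 0.0599). The other 3 probes of Ndufaf4 gave -1.49, -1.13 and -1.61 in females, where -1.49 and -1.13 passed and the probes at -1.49 and -1.61 were well above background on 3 and 4 of the 5 female CLP arrays. The female call was lost when any of sham 1, 2 and 4 or CLP 1, 2, 3 and 4 was left out, with adjusted p up to 0.0178. It was also lost with the row on the slide as a term of the model (-0.92, adjusted p = 0.02). Atp5s, also called coupling factor B, differed by -0.56 (SE 0.14, adjusted p = 0.0121) in males and by -0.53 (SE 0.13, adjusted p = 0.0168) in females. The assembly factor Ndufaf1 lay above sham in both sexes, at 0.19 and 0.23, without passing.

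The decreases were present on both slides of a sex, with larger medians on the second. In males 66 of 91 genes lay below sham on the first slide (median -0.10) and 87 on the second (median -0.37), with 2 or 3 arrays in each group. In females the counts were 65 (median -0.13) and 86 (median -0.36). Counted on both slides of a sex, 65 genes lay below sham in males and 61 in females. Ndufb10, Ndufb7, Ndufa4l2, Cox4i2 and Ndufaf4 lay below sham on each of the slides in both sexes.

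With landiolol no gene passed the test against CLP. At an FDR of 5%, 0 genes passed in males, where 1.56% of all probes did, and 0 in females, where 0.0945% did (limma), and SAM also called 0 in both. At an unadjusted p under 0.05 there were 2 genes in males, both higher, against 14.8% of all probes, and 0 in females, against 9.34%. For 0 genes did the CLP and CLP plus landiolol arrays not overlap, against 2.27% of all probes in males and 1.15% in females. In males 48 of the 91 genes lay below CLP (50.9% of all probes) with medians of 0.05, 0.01, -0.03, 0.05 and -0.05 for complexes I to V. In females 44 lay below CLP (45.2% of all probes) with medians of -0.01, -0.02, 0.01, 0.05 and -0.00. The male count was unstable, since only 8 genes lay below CLP when the dim arrays were left out, and 21 did so with array brightness as a term. Without the dim arrays the male medians for complexes I to V were 0.11, 0.17, 0.06, 0.14 and 0.07, against 0.003 for all probes. That setting left 3 male CLP plus landiolol arrays and 4 male CLP arrays. The slides also differed in direction, with 65 genes below CLP on the first and 26 on the second in males (medians of -0.07 and 0.08), and 54 and 28 in females (medians of -0.07 and 0.06).

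The 2 male genes with an unadjusted p under 0.05 were Ndufa4l2 and Cox4i2. Ndufa4l2 measured from 6.29 to 7.53 with a median of 6.68 in the male CLP plus landiolol group, compared with 5.78 to 6.82 after CLP. Cox4i2 measured from 10.89 to 11.50 with a median of 11.26, compared with 10.61 to 11.17. Both lay between the sham and CLP groups on average and overlapped the CLP group. The differences from CLP were 0.61 (SE 0.24, adjusted p = 0.241) for Ndufa4l2 and 0.36 (SE 0.14, adjusted p = 0.23) for Cox4i2, so neither passed. In females they were 0.37 (SE 0.30) and 0.29 (SE 0.21). All 8 pericyte markers lay above CLP in the male CLP plus landiolol group and Kcnj8 passed (0.78, adjusted p = 0.0315 in limma), while 6 of 8 lay above it in females and 0 passed. The part of pericytes in these values was not tested.

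The CLP plus landiolol group was then compared with sham, which shares its sham arrays with the comparison above. In males 86 of the 91 genes lay below sham (50.3% of all probes) and 1 passed, where 4.15% of all probes were called and 1.76% were called lower. This was Ndufb10, which fell by 0.41 (SE 0.09, adjusted p = 0.00796), beside a difference of -0.49 after CLP alone. In females 81 genes lay below sham (49.9% of all probes) and 3 passed, where 5.25% of all probes were called and 2.24% were called lower. At an FDR of 5%, 7 genes were lower in males, where 9.81% of probes were called and 4.72% were called lower, and 16 in females, where 12.8% were called and 5.75% were called lower. Medians for complexes I to V were -0.29, -0.32, -0.23, -0.13 and -0.29 in males and -0.27, -0.20, -0.13, -0.21 and -0.18 in females. With array brightness as a term the male medians were smaller in every complex, at -0.18, -0.20, -0.10, -0.04 and -0.10, and the female medians of complexes III and V were -0.03 and -0.08. Without the dim arrays the male medians of complexes I to V were -0.20, -0.20, -0.21, -0.10 and -0.21. With the row as a term the female medians of complexes II to V were -0.06, -0.04, -0.08 and -0.11, and with 75th percentile scaling that of complex III was -0.24. Leaving out sham 1 gave male medians of -0.35 in complex III and -0.22 in complex IV, and leaving out CLP plus landiolol 5 gave -0.04 in complex IV. The female median of complex III was -0.08 without sham 1, -0.21 without CLP plus landiolol 1 and -0.08 without CLP plus landiolol 3. Every CLP plus landiolol array lay below every sham array for 8 genes in males (3.56% of all probes) and for 11 in females (4.17%). These counts use the brightest probe of each gene. Of 30 genes with more than 1 probe measured, 1 in males and 3 in females passed only on a dimmer probe. The dimmer probe of Cox7a1 described above measured 8.99 to 9.90 in male sham hearts and 7.14 to 8.38 with landiolol. In females it measured 8.68 to 9.38 in sham hearts and at most 8.20 with landiolol, again without overlap.

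The 3 female genes that passed on their brightest probe were Atp5d, Atp5s and Cox7c. Atp5d measured from 14.39 to 14.77 with a median of 14.59 in the CLP plus landiolol group, below all sham arrays (15.13 to 15.50), and fell by 0.70 (SE 0.14, adjusted p = 0.00338 in limma). Atp5s measured from 10.14 to 10.66 with a median of 10.40, also below all sham arrays (10.75 to 11.18), and fell by 0.63 (SE 0.12, adjusted p = 0.00371). Cox7c measured from 10.90 to 11.52 with a median of 11.29, below sham (11.74 to 12.12), and fell by 0.58 (SE 0.12, adjusted p = 0.00523). After CLP alone the same genes had differences of -0.48, -0.53 and -0.48, and CLP plus landiolol differed from CLP by -0.22, -0.09 and -0.10 without passing. All female sham arrays lay in one row of the slides and all female CLP plus landiolol arrays in the other, and with the row as a term 0 of the 3 passed (adjusted p of 0.482, 0.286 and 0.269), although the differences of Atp5d, Atp5s and Cox7c were then -0.57, -0.70 and -0.70. Atp5d lost its call without sham 1 or 4, Atp5s without sham 1, 2 or 4 or CLP plus landiolol 6, and Cox7c without sham 1, 2, 3 or 5 or CLP plus landiolol 2, 5 or 6 (adjusted p up to 0.0167). The male call of Ndufb10 was lost without any 1 of 11 arrays, namely every sham array, CLP 2 and CLP plus landiolol 1, 2, 3, 5 and 6 (adjusted p up to 0.0226), and without the dim arrays (-0.39, adjusted p = 0.112).

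No gene passed a test of the difference between the sexes in its response. The test of the difference, with limma over all 32 arrays, called 0 of 26492 probes at an FDR of 5% for each of the 3 comparisons, while 3.76%, 4.93% and 6.30% of probes had an unadjusted p under 0.05 after CLP, for landiolol against CLP and for landiolol against sham. The response of Ndufa4l2 to CLP differed by -0.81 (male minus female, unadjusted p = 0.062, adjusted p = 0.9999) and that of Cox4i2 by -0.37 (unadjusted p = 0.17). For Cox7c it differed by 0.37 (SE 0.16, unadjusted p = 0.0295, adjusted p = 0.9999), and for CLP plus landiolol vs sham by 0.49 (adjusted p = 0.595). A call in 1 sex is therefore not evidence of a difference between the sexes. Levels were not compared across the sexes, because males and females lay on different slides and the 2 cannot be told apart.

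Some of the central subunits had a wide spread within groups, and their level moved with the brightness of the array. In males 45 of the 91 genes were associated with array brightness at an FDR of 5% (42 higher and 3 lower on brighter arrays), where 40.2% of all probes were and 20.9% were higher, and in females 31 were (30 higher and 1 lower), where 23.0% of all probes were and 13.5% were higher. Atp5b measured 13.02, 15.35, 15.25, 15.60 and 14.60 in male sham hearts and 13.60, 14.98, 15.21, 15.10 and 15.24 after CLP, and the lowest value of each group was that of array 1, which was dim. Its slope was 1.71 per unit of median log2 signal in males and 2.09 in females. The corresponding slopes were 1.58 and 1.52 for Ndufs1, an iron-sulphur subunit of complex I, and 1.28 and 1.29 for Sdha. By contrast, they were 0.10 and 0.13 for Ndufb10 and 0.11 and 0.03 for Cox4i1. The SD within groups ranged from 0.055 to 0.93 in males and from 0.062 to 0.79 in females, highest for Ndufs4, an accessory subunit of complex I, in both. With medians of 0.183 and 0.178 it was below that of all probes (0.335 and 0.369). The part of RNA amount or quality in the brightness was not tested.

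**Figure D5:**
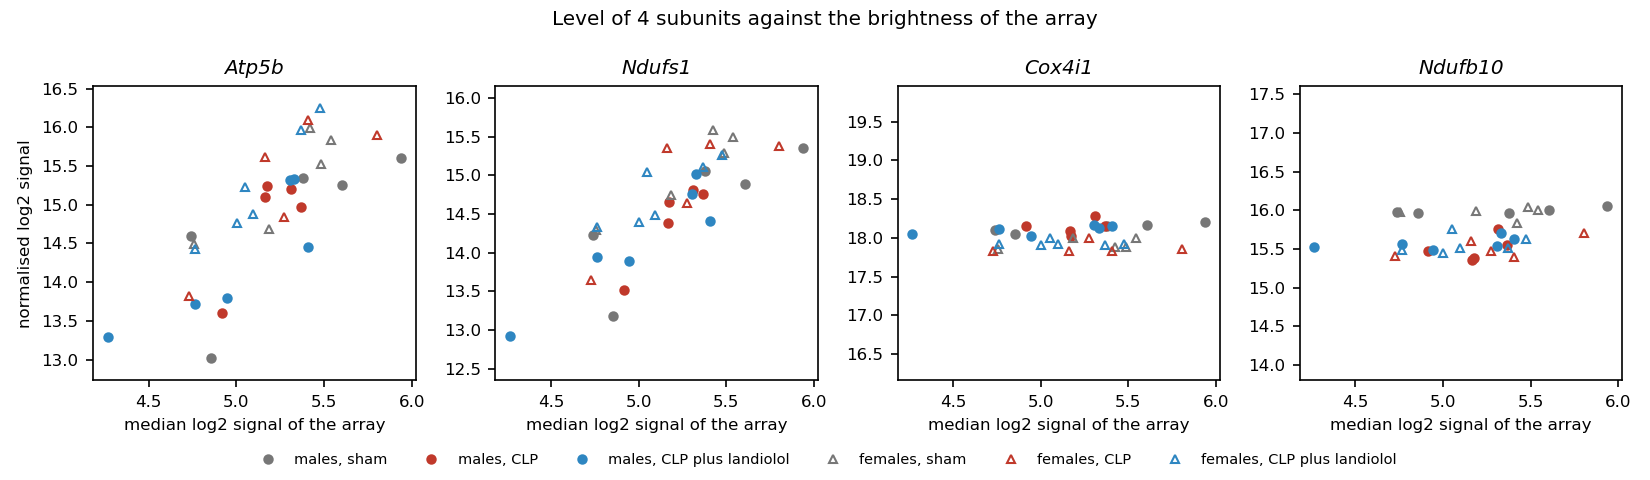
Normalised log2 level of Atp5b, Ndufs1, Cox4i1 and Ndufb10 on each of the 32 arrays against the median log2 signal of the array, with all vertical axes of equal span. Atp5b and Ndufs1 lie lower on dim arrays, with slopes of 1.71 and 1.58 in males, while Cox4i1 and Ndufb10 are nearly level.

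Among the other genes of the pathway, several regulators of mitochondrial genes fell. Of 14 regulators measured, 3 fell after CLP in males and 4 in females, and 0 rose, where 3.94% and 1.82% of all probes were called lower. Ppargc1b, a coactivator of mitochondrial biogenesis, fell by 2.65 (SE 0.28, adjusted p = 2.9e-05) in males and fell by 1.70 (SE 0.33, adjusted p = 0.00387) in females. Ppara, a regulator of fatty acid oxidation, fell in both sexes (-1.27 and -0.92), as did Esrra, an oestrogen-related receptor that acts with these coactivators (-0.67 and -0.86). Ppargc1a fell by 1.54 (SE 0.28) in females and lay at -1.03 (SE 0.47, adjusted p = 0.163) in males. Nrf1, at 0.28 and 0.13, and Tfam, at 0.21 and 0.10, lay above sham without passing. In the male CLP plus landiolol group Ppargc1b lay 1.10 above CLP (adjusted p = 0.0554), short of the threshold.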

How the data were processed

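Total RNA of 32 left ventricles was labelled with Cy3 and hybridised to Agilent rat arrays, and the authors scanned them with Feature Extraction 10.5. The deposited scanner files give an intensity per spot after background subtraction, with quality marks, and a further deposited file holds log2 values that the authors had quantile-normalised and filtered, which served here as an alternative. Processed intensities were converted to log2, outlier spots were left out (213 values, 1 of them in a probe of the genes described), the spots of each probe were averaged, and males and females were quantile-normalised apart (16 arrays each). A probe was kept where 80% or more of the arrays of some group were well above background (25866 in males, 25395 in females).

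Tests were made with limma 3.58.1 (lmFit, eBayes) under R 4.3.3, 1 fit per sex, and files were read with the data.table package (version 1.17.8). P-values were adjusted (Benjamini-Hochberg) over all probes kept, at an FDR of 1% against sham, and at 5% between the septic groups and for the interaction with sex, which was fitted to the 32 arrays normalised together. The scripts were first tested on simulated data. Gene names came from the annotations in the files. For Ndufb1, Ndufc1, Cox6b1, Cox7a1 and Atp5g3 only the female annotation gave this name to the probe used. The same holds for the dimmer Uqcrfs1 probe and for a dimmer Ndufaf4 probe. Subunits were assigned to complexes by hand. Named genes were those called in any comparison, all of complex II, the isoform sets, genes not measured and the extremes of each complex, and of other lists at most 5 genes with the lowest p. Genes named beyond this rule, and the genes with a promoter shown, were chosen after their values were seen. The genes and lists were chosen with earlier results of these data known. Alternatives were other FDR levels, counting all probes, 75th percentile scaling, normexp (offset 50), other filters, fits of only the groups compared, an intensity trend, slide and row terms, joint normalisation of the sexes, the table of the authors, SAM (100 permutations) and leaving out each array. Array brightness as a term and leaving out the 9 dim arrays were added after the data were seen.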

Additional observations from a re-analysis of the deposited data

Results flagged for a closer look

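Of 234 groups of 5 or 6 arrays examined over 39 items, 13 held an array that lay far from the other arrays of its group. The rule flags about 1 in 20 groups by chance where the groups are independent. The items shared arrays, so this rate cannot tell whether the 13 arose by chance.

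In the female CLP group, replicate 5, a dim array, was the lowest for Atp5g1 (17.2), Atp5g2 (16.7), Sdhd (14.9) and for the median of complex II relative to the sham mean (-0.75), and the highest for Ndufaf4 (10.6). Replicate 2 of this group was the lowest for Ndufb7 (15.3), and replicate 1 was the highest for Cox4i1 (18.0). In the female CLP plus landiolol group, replicate 4 was also the highest for Cox4i1 (18.0). In the female sham group, replicate 1 was the highest for Cox7c (12.1) and replicate 3, a dim array, the lowest for Ndufaf6 (10.8). In males, replicate 1 of the sham group, a dim array, was the lowest for Sdhc (13.4) and Uqcrh (16.1), and replicate 1 of the CLP group, also dim, was the lowest for Atp5b (13.6). The part of array brightness in these values was not tested.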

How the results depend on the processing

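Counts below 0 against sham kept their side under every alternative, and those called moved as follows. In males, CLP vs sham (4) gave 13 at an FDR of 5%, 7 counting all probes, 2 fitting only the groups compared and 7 with brightness as a term. CLP plus landiolol vs sham in males (1) gave 7 at 5%, 2 for all probes, 4 with normexp, 3 with an intensity trend, 3 in the table of the authors, 2 with SAM, and 0 with only the groups compared, with the row or without the dim arrays. In females, CLP vs sham (1) gave 9 at 5%, 4 for all probes, 6 with normexp, 2 with the filter over all arrays, 4 without a filter, 4 with a trend, 6 in the table of the authors, 5 with SAM, 4 with brightness and 0 with the row. CLP plus landiolol vs sham in females (3) gave 16 at 5%, 7 for all probes, 5 with 75th percentile scaling, 8 with normexp, 6 with a trend, 9 in the table of the authors, 6 with SAM and 0 with the row. Genes below CLP with landiolol went from 48 to 21 (brightness) and 8 (without dim arrays) in males and from 44 to 28 (row) and 24 (brightness) in females. Leaving out 1 array gave 3 to 5, 0 to 0 and 0 to 1 calls in males for CLP vs sham, CLP plus landiolol vs CLP and CLP plus landiolol vs sham, and 0 to 2, 0 to 0 and 0 to 4 in females. It gave 80 to 88, 33 to 53 and 83 to 88 genes below 0 in males and 72 to 88, 28 to 55 and 78 to 86 in females, and the lowest female count with landiolol vs CLP, 28, was without CLP 4. Sex differences stayed at 0. With 75th percentile scaling Cox4i1 turned to -0.10 and Cox6a2 to -0.011 in males, Cox6a2 to -0.093 and Cox6c to -0.12 in females, and Cox6c was -0.092 in the table of the authors. With the row, Cox4i2 and Ndufa4l2 turned to 0.34 and 0.49 for female CLP plus landiolol vs sham. The causes were not tested. No paired analysis was possible because the labels give no replicate numbers. Signal over background limits Cox7b2 and Cox8c, and the spread with array brightness limits Atp5b, Ndufs1 and Sdha.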

Other observations

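Several genes that build the complexes fell after CLP. Of 21 assembly factors and copper-handling genes of complex IV, 4 fell after CLP in males and 2 in females, and 0 rose, where 3.94% and 1.82% of all probes were called lower, with medians of -0.30 and -0.36. Cox10, which makes the haem precursor of the enzyme, fell in males (-0.89) and females (-0.98), as did Coa7 (-0.89 and -0.97). Coa6 and Taco1 fell in males (-0.75 and -0.61). Lyrm7, an assembly factor of complex III, fell in both sexes (-0.88 and -0.92). Among 9 assembly factors of complex I outside the name rule, 8 lay below sham in each sex and Nubpl rose in males, by 0.69 (adjusted p = 0.00527 in limma). In females Nubpl lay at 0.66 (adjusted p = 0.0387), and with landiolol it was 1.02 and 1.24 above sham, which passed in both sexes.

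The mitochondrial glycerol phosphate dehydrogenase Gpd2, which feeds electrons to ubiquinone, fell in males (-1.08) and females (-1.28), as did Ucp3, an uncoupling protein of muscle (-2.77 and -2.87). Of 9 electron carriers outside the name rule, 1 passed in each sex (medians of -0.15 and -0.36). Of 10 uncoupling and antioxidant genes, 1 passed in each sex, and only 4 in males and 3 in females lay below sham (medians of 0.07 and 0.04). Of all probes, 3.94% and 1.82% were called lower. Among 12 genes of ATP export and protein import, Tomm22, an import receptor, fell in males (-0.43). For CLP vs sham 0 of the 13 enzymes of the tricarboxylic acid cycle passed in either sex, and 0 measured genes of the pyruvate dehydrogenase complex, of the supercomplex and coenzyme Q list, of complex II assembly or of complex V assembly did so. For CLP plus landiolol vs sham in females, 1 gene each of the pyruvate dehydrogenase complex and of complex II assembly fell. A dimmer probe of Uqcrq went the other way from the bright one in females, at 0.99 for CLP plus landiolol vs sham (adjusted p = 0.0078) against -0.12. Of 30 genes with more than 1 probe measured, all probes had the same sign for CLP vs sham in 25 genes in males and 24 in females.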
